A study of Mus musculus with 8 samples.

Results

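Interferon-stimulated genes are genes whose transcripts accumulate when a cell senses an interferon. The 31 described here are listed type I and type II interferon-induced mouse genes, each found by its symbol as 1 row of a deposited table of 40838 rows. All 31 passed the filter on low counts, among 17438 genes tested. Whole liver RNA was sequenced in 8 libraries from C57BL/6 mice fed a diet that produces nonalcoholic steatohepatitis (NASH), a fatty liver disease with inflammation and scarring. Lpcat3 livers (4 libraries) came from mice injected with the adeno-associated virus (AAV) vector AAV-TBG-Lpcat3, and eGFP livers (4 libraries) from mice injected with AAV-TBG-eGFP, which encodes a fluorescent protein. Both groups ate the diet for 7 weeks before the injection and 9 weeks after it, 16 weeks in all, so every library carries a vector and the diet. Lpcat3 encodes an acyltransferase that remodels membrane phospholipids by adding polyunsaturated chains. The TBG promoter drives expression in hepatocytes, while the RNA came from all cells of the liver. Age and sex are not in the labels, nor is it stated that each library came from its own mouse, and the p-values below therefore describe the spread among these 8 libraries, which may be technical. Library totals ran from 22433625 to 25651874 counts. Lpcat3 itself was at 274 to 465 CPM (counts scaled to TMM-adjusted library totals) in Lpcat3 livers and 133 to 173 CPM in eGFP livers.

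Type I interferons act through the receptor chains Ifnar1 and Ifnar2, and the kinases Jak1 and Tyk2 then phosphorylate Stat2, which works with Irf9 in a complex that binds the interferon-stimulated response element (ISRE). Type II interferon, interferon gamma, acts through Ifngr1 and Ifngr2 on genes with a gamma-activated site (GAS). Many targets carry either element close to the start of transcription. Their products block viral replication, present antigen and feed back on the pathway, and in liver they are made by hepatocytes as well as by macrophages, endothelial cells and lymphocytes.

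The promoters of 7 members are shown because they stand for the roles described below and for both elements. Each run is the 130 bases before the start of transcription, 5′ to 3′ on the gene's strand, from RefSeq on the assembly GRCm38.p6. That is not the build GRCm39 named by the submitters, and the sequences are joined to the deposited rows by gene symbol only. Capitals mark the ISRE core (GAAA, any 2 bases, GAAA) on either strand or the GAS core TTCNNNGAA, which reads the same on both strands.
Irf1, chr11:53769884-53770013, plus strand: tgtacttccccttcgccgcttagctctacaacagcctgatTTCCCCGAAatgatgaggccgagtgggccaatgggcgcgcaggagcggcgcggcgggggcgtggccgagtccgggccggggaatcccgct
Isg15, chr4:156200819-156200948, minus strand: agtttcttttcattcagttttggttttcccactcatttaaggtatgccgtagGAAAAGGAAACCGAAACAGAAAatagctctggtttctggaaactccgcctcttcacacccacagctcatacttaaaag
Ifit1, chr19:34640759-34640888, plus strand: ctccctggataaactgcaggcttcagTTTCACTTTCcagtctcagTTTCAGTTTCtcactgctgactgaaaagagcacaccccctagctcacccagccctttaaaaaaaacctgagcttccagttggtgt
Oas1a, chr5:120907526-120907655, minus strand: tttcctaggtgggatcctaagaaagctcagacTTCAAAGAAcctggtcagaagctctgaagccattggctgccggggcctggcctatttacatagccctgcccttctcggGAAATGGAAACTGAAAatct
Trim30a, chr7:104465194-104465323, minus strand: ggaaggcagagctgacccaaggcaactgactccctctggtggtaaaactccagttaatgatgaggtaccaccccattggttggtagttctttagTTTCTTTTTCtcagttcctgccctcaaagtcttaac
Gbp7, chr3:142530206-142530335, plus strand: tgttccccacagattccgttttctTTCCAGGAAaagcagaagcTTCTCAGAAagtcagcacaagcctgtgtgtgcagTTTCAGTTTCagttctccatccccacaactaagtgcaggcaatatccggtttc
Igtp, chr11:58199426-58199555, plus strand: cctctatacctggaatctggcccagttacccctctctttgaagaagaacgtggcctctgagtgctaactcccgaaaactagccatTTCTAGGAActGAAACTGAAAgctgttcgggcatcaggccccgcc

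RefSeq promoters were found for 24 of the 31 members. Usp18, Oas2, Mx1, Mx2, Rtp4, Parp14 and Iigp1 had none in the table. In the 250 bases before any listed start, 13 of 24 members held an ISRE core, or 54.2%, against 3.46% of all 27025 genes with a promoter. A GAS core was found in 6 of 24, or 25%, against 8.13% of all genes. Oas1a, Gbp7 and Igtp held both. Isg15 held 3 overlapping ISRE cores, and the paired cores of Oas1a overlapped too. The median log2 fold change between the groups was -0.10 over the 13 members with an ISRE core and -0.08 over the 11 without one, and 8 of 13 and 7 of 11 were lower by sign in Lpcat3 livers. For the 6 members with a GAS core the median was -0.34, with 4 of 6 lower by sign. They ran from -0.44 (Irf1) to 0.18 (Igtp), and the median of the members without a GAS core was not computed. These are matches of letters and show no binding.

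No interferon-stimulated gene separated Lpcat3 livers from eGFP livers. In edgeR's quasi-likelihood test with Benjamini-Hochberg adjustment, 0 of 31 members passed an adjusted p of 0.05 in either direction, where 0% of all genes tested were called lower and 0.00573% higher. Lpcat3 itself was not called in the same test (log2 fold change 1.25, SE 0.17, edgeR adjusted p = 0.164), although its groups did not overlap. A count of 0 called therefore does not show that levels were equal. At an unadjusted p under 0.05 edgeR counted 3 members lower (Irf1, Oas1a and Trim30a, 9.68%) and 0 higher, against 5.18% and 3.3% of all genes. DESeq2 also called 0 members, where it called 0.135% of its genes lower and 0.164% higher, and counted 3 lower and 1 higher at an unadjusted p under 0.05. limma-voom called 0 and counted 3 lower and 0 higher. The share of all genes at that unadjusted p was not computed for DESeq2 or limma-voom, so their counts have no background beside them. By sign, 20 of 31 members (64.5%) were lower in Lpcat3 livers, against 51.5% of all genes. With library totals in place of TMM scaling, 28 of 31 members and 76.9% of all genes were lower. The median log2 fold change, Lpcat3 over eGFP, was -0.08, against -0.007 over all genes. That median was 0.02 without Lpcat3 replicate 4 and 0.01 without eGFP replicate 1, so its sign rests on single libraries. The groups overlapped for all 31 members, where 2.24% of all genes had every Lpcat3 library below every eGFP library and 1.93% the reverse.

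**Figure D1:**
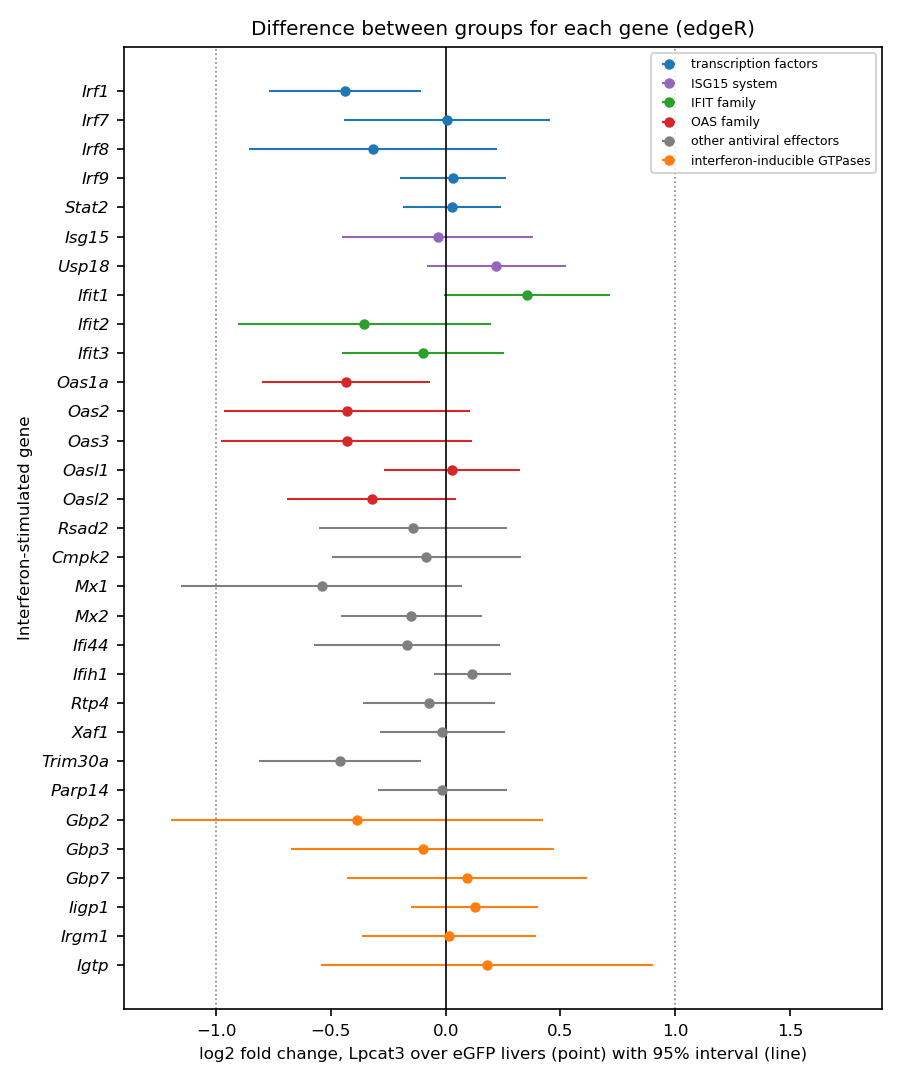
Log2 fold change, Lpcat3 over eGFP livers, of the 31 interferon-stimulated genes (points) with 95% intervals from edgeR (lines), coloured by role; dotted lines mark a 2-fold difference either way. The intervals of 29 of 31 genes stay inside the dotted lines, and those of Mx1 and Gbp2 extend below.

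The 95% interval of the log2 fold change lay within a 2-fold difference either way for 29 of 31 members (93.5%), close to the 93% of 12702 tested genes with at least the mean CPM of the lowest member. The exceptions were Mx1, with an interval of -1.15 to 0.07, and Gbp2, with an interval of -1.196 to 0.43. Members varied within groups more than most genes did. Their median within-group SD was 0.26 on the log2 scale, against 0.16 over those 12702 genes. The difference between the groups was smaller than the gene's own SD for 21 of 31 members (67.7%), against 69.8% of those genes. Per kilobase of the longest coding transcript, Iigp1 had the highest level, at 114 CPM per kilobase in Lpcat3 livers and 105 CPM per kilobase in eGFP livers. Irgm1 followed at 23.4 in Lpcat3 livers and 23.1 in eGFP livers, and Mx1 was lowest at 0.607 CPM per kilobase in Lpcat3 livers and 0.878 in eGFP livers.

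The transcription factors of the list gave both sides. Irf1, a factor that interferon gamma induces, was at 23.4, 16.6, 23.8 and 21.6 CPM in Lpcat3 livers and 30.4, 22.7, 34.5 and 27.8 CPM in eGFP livers. The groups overlapped only in that eGFP replicate 2 lay below Lpcat3 replicates 1 and 3. Mean CPM was 21.3 ± 3.29 in Lpcat3 livers and 28.9 ± 4.97 in eGFP livers (SD over 4 libraries each). The log2 fold change was -0.44 (SE 0.15; edgeR adjusted p = 0.564). Irf8, which directs the macrophage and dendritic cell lineages, was at 9.9, 10.3, 7.77 and 7.68 CPM in Lpcat3 livers and 14.5, 8.05, 14.4 and 7.48 CPM in eGFP livers. Its high libraries were eGFP replicates 1 and 3, and the other eGFP libraries lay among or below the Lpcat3 ones (log2 fold change -0.32, SE 0.24; edgeR adjusted p = 0.683).

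The members that carry the type I signal itself had similar means in both groups. Stat2 averaged 64.7 ± 5.58 CPM in Lpcat3 livers and 63.6 ± 7.27 CPM in eGFP livers (SD, n = 4 each), with a log2 fold change of 0.03 and a 95% interval of -0.19 to 0.24. Its gene overlaps Apof, which encodes an apolipoprotein, so reads there may be of either gene. Irf9, its DNA-binding partner, averaged 26.5 ± 4.17 CPM in Lpcat3 livers and 25.9 ± 0.178 CPM in eGFP livers. The eGFP libraries of Irf9 lay between 25.73 and 26.1 CPM, while the Lpcat3 libraries spread from 22.8 to 31.8 CPM. Irf7, which amplifies interferon production, averaged 18.9 ± 4.71 CPM in Lpcat3 livers, where replicate 4 was lowest at 12.1 CPM, and 18.8 ± 3.36 CPM in eGFP livers. Its log2 fold change was 0.01, with an interval of -0.44 to 0.46.

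Isg15 encodes a ubiquitin-like protein that is attached to other proteins, and Usp18 encodes the protease that removes it and also restrains signalling at Ifnar2. Isg15 was at 2.97, 3.58, 2.97 and 2.71 CPM in Lpcat3 livers and 3.77, 2.57, 3.68 and 2.48 CPM in eGFP livers. The Lpcat3 libraries all lay within the range of the eGFP libraries (log2 fold change -0.03, SE 0.19, 95% interval -0.45 to 0.38). Usp18 was at 11.4, 9.19, 8.97 and 8.91 CPM in Lpcat3 livers and 9.04, 8.86, 8.61 and 6.44 CPM in eGFP livers. The Usp18 groups overlapped narrowly, with 1 high Lpcat3 library and 1 low eGFP library (log2 fold change 0.22, SE 0.13; edgeR adjusted p = 0.65).

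The IFIT proteins bind viral RNA and stop its translation, and the signs differed within the family. Ifit1 was at 16.2, 13.4, 17.98 and 10.9 CPM in Lpcat3 livers and 13.9, 10.4, 10.6 and 10.9 CPM in eGFP livers. Lpcat3 replicates 1 and 3 lay above every eGFP library (log2 fold change 0.35, SE 0.16; edgeR adjusted p = 0.591). Ifit2 leaned the other way, at 14.9, 11.0, 9.97 and 7.64 CPM in Lpcat3 livers and 18.7, 11.3, 15.6 and 9.87 CPM in eGFP livers. Its ranges overlapped widely (log2 fold change -0.35, SE 0.24; edgeR adjusted p = 0.671). Ifit3 averaged 14.7 ± 2.89 CPM in Lpcat3 livers and 15.7 ± 2.45 CPM in eGFP livers. Of the 101-base windows of Ifit3 transcripts, the length of the reads, 31.3% also occur in the copy Ifit3b, so the division of reads between them is uncertain. Ifit3b averaged 7.97 ± 1.62 CPM in Lpcat3 livers and 8.61 ± 1.43 CPM in eGFP livers.

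**Figure D2:**
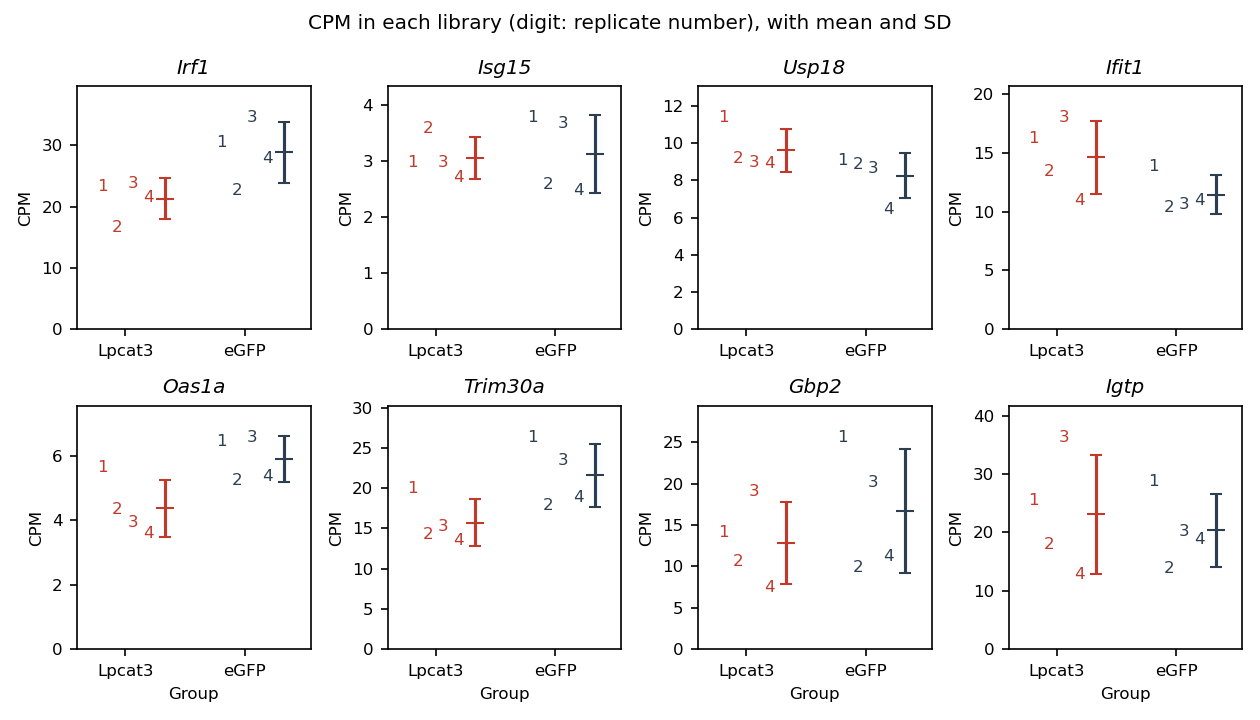
CPM of 8 interferon-stimulated genes in each library, with Lpcat3 livers left and eGFP livers right; digits are replicate numbers and bars are the mean and SD of 4 libraries. Irf1, Oas1a and Trim30a had lower means in Lpcat3 livers and Ifit1 a higher one, and the groups overlap in every panel.

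The OAS enzymes make the short oligoadenylates that activate the RNA-cutting enzyme RNase L, and 4 of the 5 members were lower by sign in Lpcat3 livers, with a median log2 fold change of -0.43. Oas1a was at 5.64, 4.33, 3.93 and 3.58 CPM in Lpcat3 livers and 6.44, 5.23, 6.57 and 5.37 CPM in eGFP livers. Only Lpcat3 replicate 1 reached the eGFP range (log2 fold change -0.43, SE 0.16; edgeR adjusted p = 0.571). Oas1a shares 40.6% of its 101-base windows with Oas1g, which averaged 3.30 ± 0.921 CPM in Lpcat3 livers and 4.19 ± 0.524 CPM in eGFP livers, so reads of these copies are uncertain. Oas2 was at 10.8, 6.63, 6.18 and 5.77 CPM in Lpcat3 livers and 12.5, 8.01, 11.4 and 7.64 CPM in eGFP livers. Oas3 was at 5.47, 3.71, 2.88 and 2.94 CPM in Lpcat3 livers and 5.81, 3.96, 6.35 and 4.09 CPM in eGFP livers. In both genes Lpcat3 replicates 2, 3 and 4 lay below every eGFP library, and replicate 1 lay among the eGFP libraries (log2 fold change -0.43 for each; edgeR adjusted p = 0.631 for Oas2 and 0.636 for Oas3).

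The OAS-like members gave different signs. Oasl2, an active synthetase in mouse, averaged 11.1 ± 1.85 CPM in Lpcat3 livers and 13.9 ± 2.82 CPM in eGFP livers (log2 fold change -0.32, SE 0.16; edgeR adjusted p = 0.616). Oasl1, which lacks synthetase activity in mouse and represses Irf7 translation, averaged 9.28 ± 1.19 CPM in Lpcat3 livers and 9.11 ± 1.28 CPM in eGFP livers (log2 fold change 0.03, SE 0.13), and the sign turned with library totals (-0.10), which put the median of all genes at -0.13. The median log2 difference of the 5 OAS genes was 0.05 between the libraries coded 1290 or 1317 and -0.30 between those coded 1344 or 1345, numbers of unstated meaning in the library codes.

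Among the other antiviral effectors 9 of 10 were lower by sign, with a median log2 fold change of -0.11. Within the codes 1290 and 1317 only 2 of 10 were lower (median 0.10), within 1344 and 1345 7 of 10 were (median -0.07). Fitting the code division gave a median of 0.05. Trim30a, a tripartite-motif protein, was at 19.9, 14.2, 15.2 and 13.5 CPM in Lpcat3 livers and 26.3, 17.8, 23.4 and 18.9 CPM in eGFP livers. As with Oas1a, only Lpcat3 replicate 1 reached the eGFP range (log2 fold change -0.46, SE 0.16; edgeR adjusted p = 0.564). Mx1 is a dynamin-like GTPase that most inbred strains, C57BL/6 among them, carry as a defective allele. It was at 2.45, 1.59, 2.54 and 1.63 CPM in Lpcat3 livers and 3.30, 2.37, 4.23 and 1.98 CPM in eGFP livers (log2 fold change -0.54, SE 0.27; edgeR adjusted p = 0.616). Without eGFP replicate 3, its highest library, the log2 fold change was -0.32. Its neighbour Mx2 averaged 4.48 ± 0.708 CPM in Lpcat3 livers and 4.97 ± 0.351 CPM in eGFP livers (log2 fold change -0.15, SE 0.14).

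Rsad2, or viperin, makes a chain-terminating nucleotide, and its neighbour Cmpk2 is a mitochondrial nucleotide kinase. Rsad2 averaged 12.5 ± 2.56 CPM in Lpcat3 livers and 13.8 ± 2.89 CPM in eGFP livers. Cmpk2 averaged 6.26 ± 1.54 CPM in Lpcat3 livers and 6.64 ± 1.07 CPM in eGFP livers. Neither difference exceeded the spread within groups. Ifih1, the RNA sensor MDA5, was the one member of this role with a positive sign, at 54.4 ± 4.64 CPM in Lpcat3 livers and 50.2 ± 2.54 CPM in eGFP livers (log2 fold change 0.12, SE 0.07; edgeR adjusted p = 0.662). That sign turned when library totals replaced TMM scaling (-0.01), a scaling that put the median of all genes at -0.13.

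The remaining effectors had group means close to each other. Parp14, an ADP-ribosyltransferase, averaged 99.6 ± 13.0 CPM in Lpcat3 livers and 101 ± 15.1 CPM in eGFP livers, with a log2 fold change of -0.01 and a 95% interval of -0.30 to 0.27. Xaf1, an antagonist of the apoptosis inhibitor XIAP, averaged 12.6 ± 1.78 CPM in Lpcat3 livers and 12.7 ± 1.31 CPM in eGFP livers. Ifi44 averaged 7.72 ± 1.34 CPM in Lpcat3 livers and 8.67 ± 1.86 CPM in eGFP livers. Rtp4 averaged 18.7 ± 3.37 CPM in Lpcat3 livers and 19.6 ± 1.44 CPM in eGFP livers, and its gene overlaps Masp1 in the annotation, so reads there may be of either gene. The same holds for Ifit1 with its relative Ifit1bl1, and for Isg15, Usp18, Ifih1, Trim30a, Gbp2 and Gbp3 with predicted or small RNA genes.

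The interferon-inducible GTPases gather on membranes around intracellular pathogens and are strong targets of interferon gamma. Of all members, Gbp2 and Igtp varied most between libraries. Iigp1 varied less, with its highest library 1.54 times its lowest, against a median of 1.76 over the members. Gbp2 was at 14.1, 10.65, 19.1 and 7.44 CPM in Lpcat3 livers and 25.6, 9.88, 20.1 and 11.2 CPM in eGFP livers. The highest library was 3.44 times the lowest, and each group held both high and low libraries (log2 fold change -0.39, SE 0.36; edgeR adjusted p = 0.741). The log2 fold change was -0.10 without eGFP replicate 1 and -0.64 without Lpcat3 replicate 3. Igtp was at 25.5, 17.9, 36.2 and 12.8 CPM in Lpcat3 livers and 28.8, 13.7, 20.1 and 18.8 CPM in eGFP livers. Both the highest and the lowest Igtp library were Lpcat3 ones (log2 fold change 0.18, SE 0.32; edgeR adjusted p = 0.866).

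The other GTPases had smaller fold changes, with intervals on both sides of 0. Iigp1 was at 359.7, 344, 427 and 295 CPM in Lpcat3 livers and 362, 278, 334 and 332 CPM in eGFP livers, with means of 356 ± 54.6 CPM in Lpcat3 livers and 327 ± 35.3 CPM in eGFP livers (log2 fold change 0.13, 95% interval -0.15 to 0.40). Irgm1, a regulator of the other immunity-related GTPases, averaged 52.9 ± 11.6 CPM in Lpcat3 livers and 52.3 ± 8.33 CPM in eGFP livers. Gbp7 averaged 39.7 ± 11.3 CPM in Lpcat3 livers and 37.2 ± 9.94 CPM in eGFP livers, and Gbp3 averaged 8.11 ± 2.74 CPM in Lpcat3 livers and 8.67 ± 2.21 CPM in eGFP livers. The 95% intervals of the log2 fold change were -0.36 to 0.40 for Irgm1, -0.43 to 0.61 for Gbp7 and -0.68 to 0.47 for Gbp3. Lpcat3 replicate 3 was the highest of the 8 libraries for 5 of these 6 GTPases, and eGFP replicate 1 for Gbp2.

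**Figure D3:**
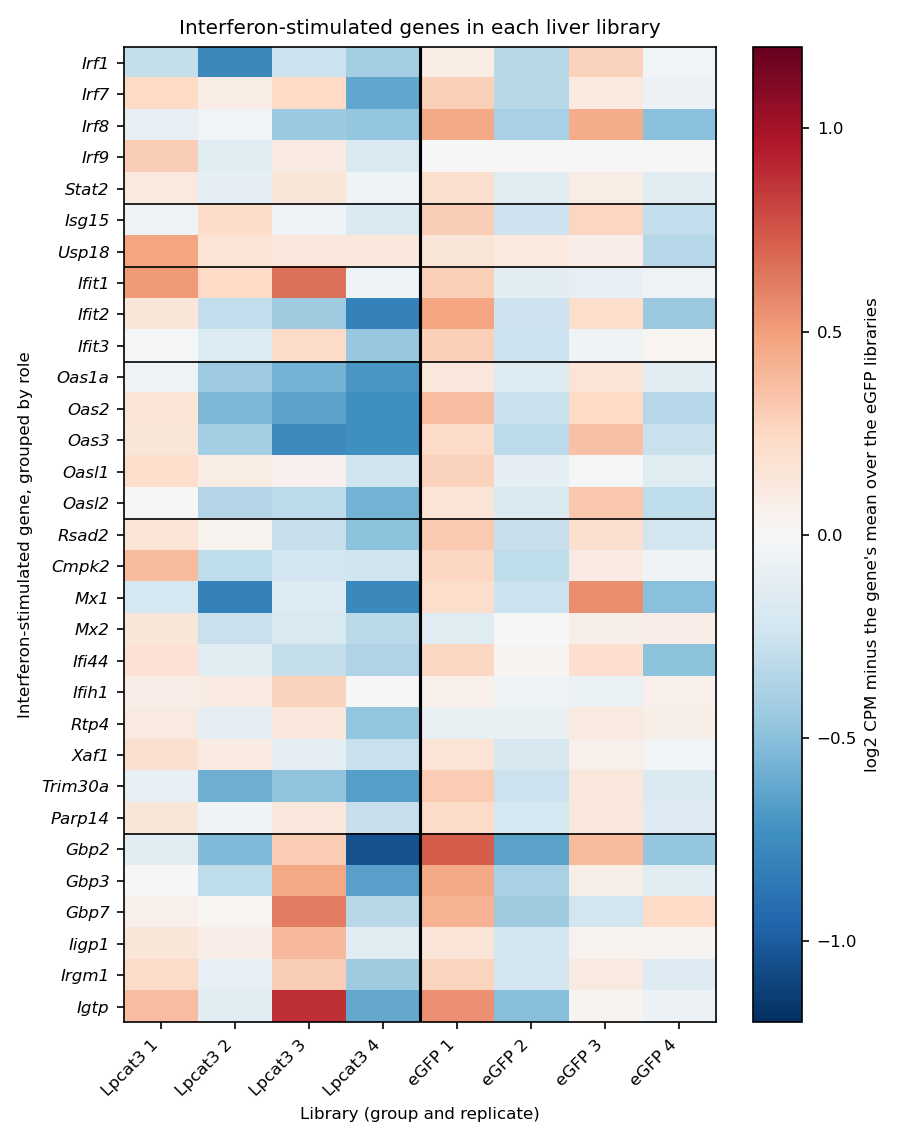
Log2 CPM of the 31 interferon-stimulated genes in each library relative to the gene's mean over the eGFP libraries, with Lpcat3 libraries left of the line and genes grouped by role from transcription factors at the top to GTPases at the bottom. Lpcat3 replicate 4 is blue nearly throughout (1 of 31 genes above the eGFP mean) and eGFP replicate 1 red (28 of 31), so colour runs by column more than by group.

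The members moved together by library more than by group. eGFP replicate 1 was the highest of the 8 libraries for 13 of 31 members (41.9%), against 12.4% of all genes tested. Lpcat3 replicate 4 was the lowest for 18 of 31 (58.1%), against 9.06% of all genes. Relative to the eGFP mean, the median member was at 0.14, -0.14, 0.06 and -0.42 (log2) in the 4 Lpcat3 libraries and 0.25, -0.25, 0.11 and -0.14 in the 4 eGFP libraries. Each group therefore held 2 libraries above 0 and 2 below, though the eGFP libraries lie around 0 because their own mean is the reference. The median of all genes, which the scaling keeps near 0, stayed between -0.01 and 0.01 in every library. The members' summed level was 782 to 1105 CPM in Lpcat3 livers and 807 to 1091 CPM in eGFP livers.

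The roles did not follow 1 order of libraries. In Lpcat3 replicate 3 the median of the OAS family was -0.57 (log2, relative to the eGFP mean) and that of the GTPases 0.43. In Lpcat3 replicate 4 both were low, at -0.70 and -0.52. In eGFP replicate 1 both were high, at 0.23 and 0.43. These medians describe 5 and 6 genes and carry no test.

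**Figure D4:**
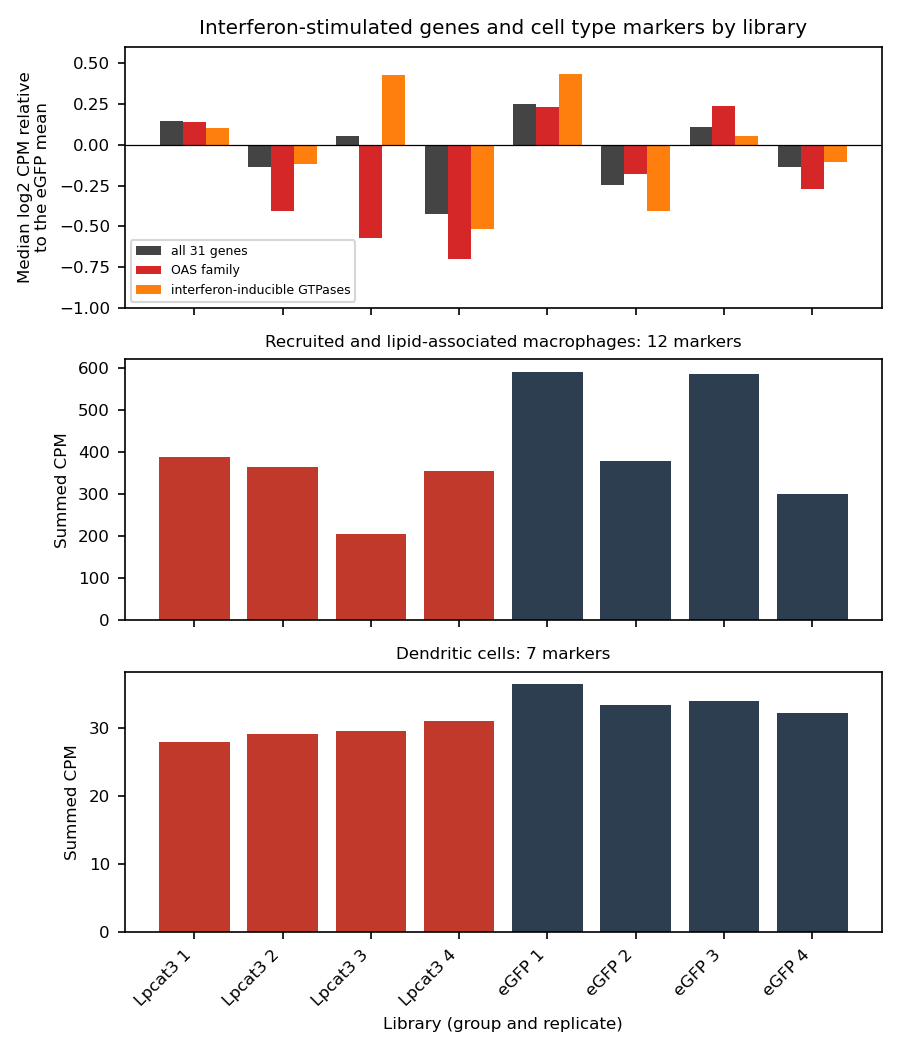
Top, median log2 CPM relative to the eGFP mean of all 31 interferon-stimulated genes, the 5 OAS genes and the 6 GTPases in each library; middle and bottom, summed CPM of 12 macrophage and 7 dendritic cell markers, Lpcat3 libraries in red and eGFP libraries in blue. OAS genes are low and GTPases high in Lpcat3 replicate 3, and macrophage markers are highest in eGFP replicates 1 and 3.

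Part of the list was highest in the same libraries as some immune cell markers. eGFP replicates 1 and 3 were the 2 highest libraries for 13 of 31 members (41.9%), against 12.6% of all genes tested. These were Irf1, Irf8, Isg15, Ifit2, Oas1a, Oas2, Oas3, Oasl2, Rsad2, Mx1, Ifi44, Trim30a and Gbp2. The 13 were picked by those libraries, so their match with markers highest there is fixed by the choice. The same libraries had the highest summed level of 12 recruited and lipid-associated macrophage markers, 592 and 587 CPM, against 206 to 389 CPM in the Lpcat3 libraries and 301 and 379 CPM in the other eGFP libraries. They were also highest for 12 T and NK cell markers, at 12.02 and 12.9 CPM, against 5.85 to 7.19 CPM in the Lpcat3 libraries and 4.70 and 5.78 CPM in the other eGFP libraries. Other members went the other way. Lpcat3 replicate 3 had the lowest macrophage sum, 206 CPM, and was the highest library for 8 of 31 members (25.8%, against 20.4% of all genes). Of the macrophage markers 11 of 12 were lower by sign in Lpcat3 livers, with 0 called by edgeR and 5 lower (41.7%, against 5.18% of all genes) and 0 higher at an unadjusted p under 0.05. Dendritic cell markers summed to 27.97 to 30.99 CPM in Lpcat3 livers and 32.2 to 36.5 CPM in eGFP livers, without overlap. Most of that sum was Zbtb46 and Clec9a, and Clec9a was the 1 of 7 markers without overlap (14.3%, against 2.24% of all genes). By sign 5 of 7 were lower, while Siglech (log2 fold change 0.31) and Flt3 (0.20) were positive and Ccr9 was at -0.06. In edgeR 0 of these markers were called, and 2 were lower (28.6%, against 5.18% of all genes) and 0 higher at an unadjusted p under 0.05. Endothelial markers summed to 305 to 385 CPM in Lpcat3 livers and 384 to 422 CPM in eGFP livers. Of these markers 6 of 6 were lower by sign (median -0.26). In edgeR 0 were called, and 3 were lower (50%, against 5.18% of all genes) and 0 higher at an unadjusted p under 0.05. Cdh5 (log2 fold change -0.40) was the 1 of 6 without overlap (16.7%, against 2.24% of all genes). Kupffer cell markers summed to 266 to 472 CPM in Lpcat3 livers and 305 to 443 CPM in eGFP livers, with C6 (log2 fold change 0.45) the largest contributor to the group means. By sign 5 of 7 Kupffer cell markers were lower (median -0.39, and -0.37 and -0.79 within the code divisions). At an unadjusted p under 0.05 edgeR counted 3 lower (42.9%, against 5.18% of all genes), with log2 fold changes of -0.88 for Cd5l, -0.49 for Vsig4 and -0.62 for Folr2, and called 0. Stellate cell markers summed to 268 to 410.0 CPM in Lpcat3 livers and 331 to 382 CPM in eGFP livers. B cell markers summed to 2.54 to 3.87 CPM in Lpcat3 livers and 3.10 to 5.07 CPM in eGFP livers, and neutrophil markers to 4.99 to 7.96 CPM in Lpcat3 livers and 7.35 to 19.7 CPM in eGFP livers. Hepatocyte markers were abundant in every library, at 47267 to 78095 CPM in Lpcat3 livers and 39365 to 65755 CPM in eGFP livers. The part of cell makeup in the members' levels was not tested, and in whole liver RNA fewer cells of a type and less RNA per cell cannot be told apart.

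The code numbers divide the groups unevenly: 1 Lpcat3 and 3 eGFP libraries have 1290 or 1317, and the others 1344 or 1345. The median log2 difference of the members, Lpcat3 minus eGFP, was 0.09 within 1290 and 1317 and -0.03 within 1344 and 1345. The sign was opposite in the divisions for 14 of 31 members, positive in both for 10 and negative in both for 7. Irf1 gave -0.30 and -0.45, Trim30a -0.16 and -0.40, and Oas1a -0.10 and -0.44. Usp18 gave 0.36 and 0.48, and Ifit1 0.49 and 0.34. Replicate 1 was the only Lpcat3 library in 1290 and 1317, and replicate 4 the only eGFP library in 1344 and 1345. For Usp18 these were its highest Lpcat3 library (11.4 CPM) and its lowest eGFP library (6.44 CPM), both set apart from the rest of their group. Without eGFP replicate 4 the undivided log2 fold change of Usp18 was 0.12. With the division as a term, the list median was 0.04, the unadjusted edgeR p was 0.00187 for Usp18, 0.0476 for Ifit1 and 0.0559 for Irf1, and 0 members passed after adjustment.

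Transcripts of the interferon genes searched were nearly absent. Of 7 ligand genes searched, 6 (Ifna1, Ifna2, Ifna4, Ifnb1, Ifnl2 and Ifnl3) had 0 counts in every library, which allows up to 3 counts, or at most 0.144 CPM in any of the 8 libraries. Ifng had 2 counts over the Lpcat3 libraries and 5 over the eGFP libraries. Of 22 listed ligands, receptors, kinases and feedback genes 14 were tested. In edgeR 0 passed in either direction, and 1 was lower (7.14%, against 5.18% of all genes) and 0 higher at an unadjusted p under 0.05, with a median log2 fold change of -0.16. By sign 12 of the 14 were lower and 2 higher, where 51.5% of all genes were lower. Ptpn6, a phosphatase of blood cells, was at 17.95 ± 2.12 CPM in Lpcat3 livers and 23.5 ± 5.21 CPM in eGFP livers (edgeR adjusted p = 0.579). Jak1 was at 146 ± 14.1 CPM in Lpcat3 livers and 168 ± 17.5 CPM in eGFP livers, Ifngr2 at 33.5 ± 3.0003 CPM in Lpcat3 livers and 38.5 ± 4.94 CPM in eGFP livers, and the feedback inhibitor Socs3 at 4.25 ± 1.25 CPM in Lpcat3 livers and 5.80 ± 1.18 CPM in eGFP livers. The receptor chain Ifnar1, chosen with its values already seen, had 64.8 ± 2.67 CPM in Lpcat3 livers and 64.0 ± 3.73 CPM in eGFP livers.

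Genes of nucleic acid and viral sensing were tested in 18 of 19 cases, with 0 called, 4 lower (22.2%, against 5.18% of all genes) and 0 higher (against 3.3%) at an unadjusted p under 0.05 in edgeR, and a median log2 fold change of -0.15. Of the 18, 13 were lower and 5 higher by sign, where 51.5% of all genes were lower. The kinase Ikbke, which activates interferon transcription, was at 20.6 ± 2.01 CPM in Lpcat3 livers and 27.9 ± 5.22 CPM in eGFP livers, without overlap of the groups, as for 2.24% of all genes (log2 fold change -0.44; edgeR adjusted p = 0.564). Aim2, a sensor of cytosolic DNA, was at 5.17 ± 1.32 CPM in Lpcat3 livers and 7.72 ± 1.43 CPM in eGFP livers. Tlr7, an endosomal sensor of RNA, was at 8.15 ± 2.53 CPM in Lpcat3 livers and 13.2 ± 3.69 CPM in eGFP livers. Tlr9, an endosomal sensor of DNA, was at 2.76 ± 0.828 CPM in Lpcat3 livers and 4.33 ± 1.30 CPM in eGFP livers. Ddx58, the RNA sensor RIG-I named after its values were seen, averaged 53.6 ± 7.64 CPM in Lpcat3 livers and 53.5 ± 5.16 CPM in eGFP livers.

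Further interferon-induced genes outside the 31 also held genes on both sides. Of 65 listed, 64 were tested, 0 were called, 11 were lower (17.2%, against 5.18% of all genes) and 3 higher (4.69%, against 3.3%) at an unadjusted p under 0.05 in edgeR, and the median log2 fold change was -0.09. By sign 42 of the 64 were lower and 22 higher, where 51.5% of all genes were lower. Ifi204, a DNA-binding protein of myeloid cells, was at 17.8 ± 4.01 CPM in Lpcat3 livers and 27.3 ± 5.45 CPM in eGFP livers (log2 fold change -0.61; edgeR adjusted p = 0.564). The nuclear body protein Sp100 was at 22.8 ± 2.81 CPM in Lpcat3 livers and 29.4 ± 3.56 CPM in eGFP livers, and Slfn5 at 37.6 ± 4.64 CPM in Lpcat3 livers and 49.1 ± 8.84 CPM in eGFP livers. Gbp11 stood on the other side, at 11.9 ± 4.25 CPM in Lpcat3 livers and 6.76 ± 1.87 CPM in eGFP livers (log2 fold change 0.81; edgeR adjusted p = 0.565).

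**Figure D5:**
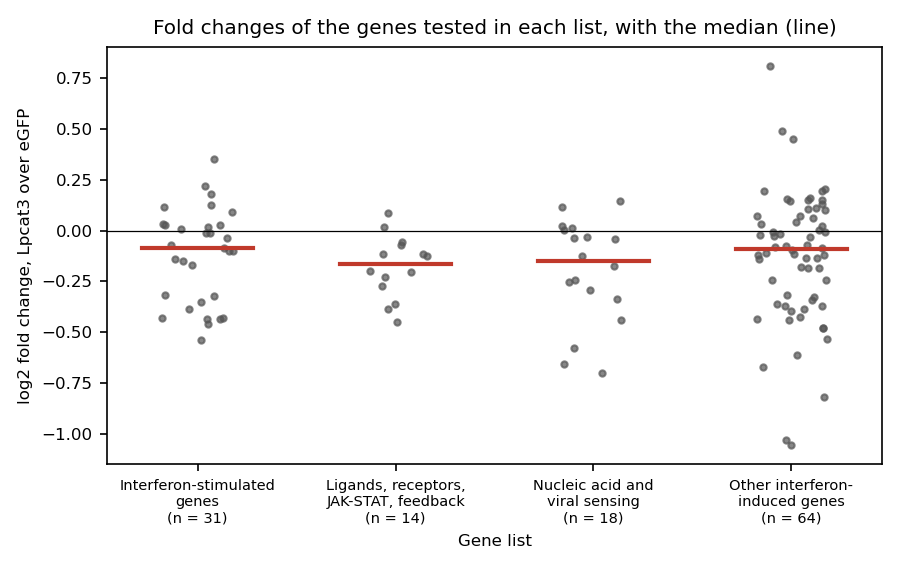
Log2 fold change, Lpcat3 over eGFP livers, of every gene tested in the list of 31 and in 3 other interferon lists (points), with the median of each (line). The medians lie between -0.16 and -0.08. Each list holds genes on both sides of 0, with 20 of 31, 12 of 14, 13 of 18 and 42 of 64 lower, from left to right.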

How the data were processed

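The values deposited by the authors are raw counts of reads for each gene in 1 table, without scaling, and each row carries an NCBI gene number. Per the labels' protocols, TRIzol RNA was depleted of ribosomal RNA, and stranded libraries were read for 101 cycles from 1 end. The submitters' processing notes name bcl2fastq 2.20, DESeq2 and GRCm39. For the aligner, the counter and use of strand the sources used here give nothing, so reads of overlapping genes are uncertain.

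Columns were joined to samples by the codes in the titles. Symbols came from a RefSeq table of GRCm38.p6, which matched 39397 rows. Low genes were removed with filterByExpr (minimum count 10), and 17438 genes were compared with edgeR 4.0.16 (R 4.3.3; TMM, glmQLFit with robust estimation, glmQLFTest, group as the only term), two-sided, adjusted by Benjamini-Hochberg over all genes tested. Intervals of 95% come from the same fit. CPM uses TMM-scaled totals, and log2 CPM a prior count of 2. Alternatives were DESeq2 1.42.0, limma 3.58.1, RLE or total scaling, no filter or a stricter one, no robust estimation, a replicate block, the code numbers as a term, and leaving libraries out. The steps were tested on simulated counts. Read sharing was computed as exact 101-base windows in GENCODE transcripts. The libraries of each group differed by more than counting noise.

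The 31 members and the other lists were chosen with earlier results of these data known. All members are named, and from each of the 3 other interferon lists the 4 genes with the smallest p.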

Additional observations from a re-analysis of the deposited data

Results flagged for a closer look

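Within a group of 4 libraries, 5 of 62 groups of values (31 members in each of 2 groups) held a library set apart from the other 3 by Dixon's 95% criterion, where about 5% are passed by chance. Lpcat3 replicate 1 was involved in 3 of them, all as the high library. Usp18 was at 11.4 CPM in Lpcat3 replicate 1, against 8.91 to 9.19 CPM in the other Lpcat3 libraries, Oas2 at 10.8 CPM against 5.77 to 6.63 CPM, and Cmpk2 at 8.56 CPM against 5.30 to 5.61 CPM. Usp18 was also low in eGFP replicate 4, at 6.44 CPM against 8.61 to 9.04 CPM in the other eGFP libraries. Ifit1 was high in eGFP replicate 1, at 13.9 CPM against 10.4 to 10.9 CPM in the others.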

How the results depend on the processing

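Under every setting run, 0 of the 31 members passed after adjustment (smallest adjusted p 0.288). Without 1 library at a time the list median ran from -0.15 to 0.02, and adding the code division gave 0.04; the cause was not tested. Among all genes 1 was called higher, against 3 with library totals, 2 without robust estimation, 0 with no filter, with the replicate block, the code division, each code number or both libraries numbered 3 left out, and 0 to 7 without 1 library at a time. DESeq2 called 28 higher and 23 lower. Of the members, 11 were lower and 2 (Usp18 and Ifit1) higher under every setting, and 18 turned sign under at least 1. With library totals, which lower all genes, Irf7 was -0.12, Irf9 -0.08, Stat2 -0.10, Oasl1 -0.10, Ifih1 -0.01, Gbp7 -0.04, Iigp1 -0.00 and Irgm1 -0.12. With limma-voom Irf7 was -0.07, Irf9 -0.01, Oasl1 -0.02, Irgm1 -0.06 and Igtp -0.02. Without both libraries numbered 3, Irf7 was -0.04, Isg15 0.06, Xaf1 0.03, Gbp7 -0.19, Irgm1 -0.05 and Igtp -0.13. With the code division Isg15 was 0.07, Rsad2 0.04, Cmpk2 0.07, Ifi44 0.12, Xaf1 0.06 and Parp14 0.09. With each code number Irf7 was -0.09, Cmpk2 0.15, Ifi44 0.07, Xaf1 0.02, Parp14 0.01, Gbp7 -0.24, Irgm1 -0.00 and Igtp -0.07. Without 1 library at a time Irf7 ran from -0.09 to 0.17, Irf9 -0.07 to 0.10, Stat2 -0.02 to 0.09, Isg15 -0.13 to 0.07, Ifit3 -0.22 to 0.01, Oasl1 -0.04 to 0.13, Cmpk2 -0.27 to 0.01, Rtp4 -0.14 to 0.04, Xaf1 -0.09 to 0.06, Parp14 -0.08 to 0.07, Gbp3 -0.33 to 0.08, Gbp7 -0.11 to 0.24, Irgm1 -0.09 to 0.14 and Igtp -0.12 to 0.40. Of the members that kept their sign there, these moved by more than 1.5 times: Irf8 ran from -0.47 (without eGFP replicate 4) to -0.16 (without eGFP 1), Ifit2 from -0.55 (without Lpcat3 1) to -0.17 (without eGFP 1), Oas2 from -0.68 (without Lpcat3 1) to -0.29 (without eGFP 1), Oas3 from -0.67 (without Lpcat3 1) to -0.30 (without eGFP 3), Oasl2 -0.44 to -0.20, Rsad2 -0.25 to -0.02, Mx1 -0.69 (without eGFP 4) to -0.32 (without eGFP 3), Mx2 -0.26 to -0.09, Ifi44 -0.31 to -0.08, Gbp2 -0.64 to -0.10, Usp18 0.12 (without eGFP 4) to 0.27, Ifih1 0.06 to 0.15 and Iigp1 0.03 to 0.21. The replicate numbers did not pair the samples (correlations of same-numbered deviations 0.285, -0.069, -0.40 and -0.124, and 1 of 4 Lpcat3 libraries correlated best with its own number). With the replicate block 0 genes were called, 7 members were lower and 1 higher at an unadjusted edgeR p under 0.05, and Irf7 was -0.01. The share of all genes at that p was not computed for this fit, so the counts have no background beside them. They also changed with the setting, at 7 lower and 0 higher without Lpcat3 replicate 1, and 1 lower and 1 higher without eGFP replicate 1. The standard error was largest for Gbp2 (0.36) and Igtp (0.32), which varied most between libraries.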

Other observations

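Some interferon genes outside the 31 were chosen after their values were seen. Ifit1bl2, a relative of Ifit1 that shares 3.21% of the 101-base windows of Ifit1 with it, was at 0.119 ± 0.0800 CPM in Lpcat3 livers and 0.373 ± 0.0816 CPM in eGFP livers (SD, n = 4 each), without overlap, and was too low to be tested. Ifi35 was the 1 of 64 tested further interferon-induced genes (1.56%, against 1.93% of all genes) with every Lpcat3 library above every eGFP library, at 12.1 ± 0.746 CPM in Lpcat3 livers and 10.5 ± 0.432 CPM in eGFP livers (edgeR adjusted p = 0.581). Trex1, a DNA exonuclease, was listed at 0 in every library, and whether its reads were lost in counting was not tested.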
